A study of Mus musculus with 8 samples.

Results

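The 10 genes described here are general markers of macrophages and monocytes: Csf1r, Adgre1, Itgam, Cd14, Ms4a7, Lyz1, Lyz2, Cd68, Mpeg1 and Aif1. They were chosen by name, as every probe set of an Affymetrix mouse array that the platform annotation gives to exactly 1 of these symbols, which yielded 15 of 45101 probe sets and 10 of the 18194 genes that have such a probe set. Each value is the brightness of a probe set on a linear scale whose dim end lies near 1, and it serves here as a measure of macrophage content in pancreatic islets.

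The study asked what happens in islets under attack by T cells when interferon-γ, a T cell cytokine that activates macrophages, is blocked. In the protected arm (4 arrays, days 3, 4, 5 and 8), NOD.Scid mice received CD4+ T cells carrying the BDC2.5 transgene on day 0 and an antibody against interferon-γ on days -1 and 2. In the diabetogenic arm (3 arrays, days 3, 4 and 8), NOD.Scid mice received the same T cells and no antibody, and no control antibody is mentioned. The untreated group (1 array, day 0) was NOD.Scid mice without T cells or antibody. All mice carry the scid mutation and so lack T and B cells of their own but keep macrophages, dendritic cells, neutrophils and natural killer cells. Every array holds laser-captured islets with the RNA of 5 mice pooled, so no spread between mice can be measured, and no arm and day has a second array. Ages are not given in the sources used here, and no diabetogenic array of day 5 was analysed, since those islets were too swollen to cut out.

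Macrophages are resident in islets in the absence of disease, and monocytes from blood can enter an inflamed islet and become macrophages there. Csf1r, the receptor for the growth factors CSF1 and IL-34, keeps both kinds alive. Lysozymes and lysosomal or pore-forming proteins serve to digest and kill what these cells take up. In bulk tissue, fewer cells of a type and less RNA per cell cannot be told apart, so a marker's intensity can move with either.

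The lysozyme genes Lyz1 and Lyz2 are neighbouring copies on mouse chromosome 10, and they are printed here because their signals were the most alike among the 10 markers. The 250 bases before each start site, from RefSeq on build GRCm38.p6, minus strand, lie at chr10:117292869-117293118 for Lyz1 and at chr10:117282273-117282522 for Lyz2. Capitals mark the longest run of bases that both share at the same distance from the start, and the sequence ends at the base before the start.

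Lyz1: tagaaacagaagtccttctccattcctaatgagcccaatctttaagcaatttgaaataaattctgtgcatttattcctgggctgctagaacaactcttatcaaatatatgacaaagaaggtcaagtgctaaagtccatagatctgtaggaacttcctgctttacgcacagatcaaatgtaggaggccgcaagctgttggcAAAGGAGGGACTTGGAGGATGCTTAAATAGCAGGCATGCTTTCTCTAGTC

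Lyz2: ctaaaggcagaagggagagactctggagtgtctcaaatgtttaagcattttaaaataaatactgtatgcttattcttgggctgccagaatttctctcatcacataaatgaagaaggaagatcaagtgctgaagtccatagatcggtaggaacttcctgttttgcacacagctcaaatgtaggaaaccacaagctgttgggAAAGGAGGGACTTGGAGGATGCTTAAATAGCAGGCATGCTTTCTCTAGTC

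The shared run is 50 bases long and lies directly before the start site in both genes. Set base against base without gaps, 152 of 250 positions were identical, 115 of the 125 nearest the start but 37 of the 125 farthest from it. No probe sequence was used here, so how far the Lyz1 probe sets also bind Lyz2 RNA was not measured. The name of both bright Lyz1 probe sets ends in x_at, the platform's mark for probes that may match other transcripts.

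Depth of signal differed between arrays. Array medians lay between 3.14 and 3.96, but the 99th percentile of intensity was 25.6 on the diabetogenic day 4 array, against 67.0 to 94.9 on the other 7 arrays. Where leaving out this array or the day 4 pair moved the mean difference between groups of a gene named below by over 1.5 times, the value without it is given. Medians of lists and probe sets other than the used ones were not recomputed without it. The 18 probe sets for spiked-in bacterial and phage transcripts had array medians of 1.48 to 2.29 on the untreated and both day 3 arrays and of 551 to 1712 on the arrays of days 4 to 8. This split puts the day 3 arrays with the untreated array and lies between day 3 and days 4 to 8, along the axis of the change per day, but it does not lie between the arms on a matched day. The ratio of 3' to 5' signal of Actb, a measure of RNA integrity and amplification, was 5.01 to 24.2 on protected arrays, 2.25 to 13.8 on diabetogenic arrays and 1.86 on the untreated array. It was highest on protected day 5. The same ratio of Gapdh gave another order, with 6.40 on protected day 5, 5.14 on the untreated array and its highest value, 19.0, on diabetogenic day 8. The part of these differences in the results below was not tested, except where a value without the array or within the set is given.

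In islets that no T cell had entered, the markers already differed in how far they stood above the bulk of probe sets. On the untreated array Csf1r had an intensity of 23.9, at the 94.5th percentile of all probe sets, and Lyz1 had 19.1, at the 93.1st percentile. Adgre1, which encodes the F4/80 antigen used to identify mouse tissue macrophages, had 7.58 and lay at the 80.6th percentile. These positions describe the array, since brightness also depends on the probe, and they do not rank the genes by RNA.

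Mpeg1 (5.49), Ms4a7 (4.34) and Lyz2 (4.18) lay at the 71.3rd, 61.8th and 60.1st percentiles of the untreated array. For comparison, the 4 tested genes of B cells, which these mice lack, had 2.72 to 4.38 on this array. A marker value in or below that range therefore does not by itself show resident macrophages. Cd14 (3.01) and Aif1 (2.8) lay below its median of 3.42, at the 43.0th and 39.2nd percentiles. Cd68 (1.43) and Itgam (1.38) lay at its dim end, at the 9.40th and 8.45th percentiles. The position depended on the probe set: of the other 2 for Csf1r, 1419873_s_at had 2.90, at the 41.1st percentile, and 1423593_a_at had 4.85, at the 66.5th. Of the other 2 for Lyz1, 1439426_x_at had 11.3, at the 87.9th percentile. The other of them, 1450822_at, had 4.37, at the 62.1st percentile, within the range of the B cell genes.

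**Figure D1:**
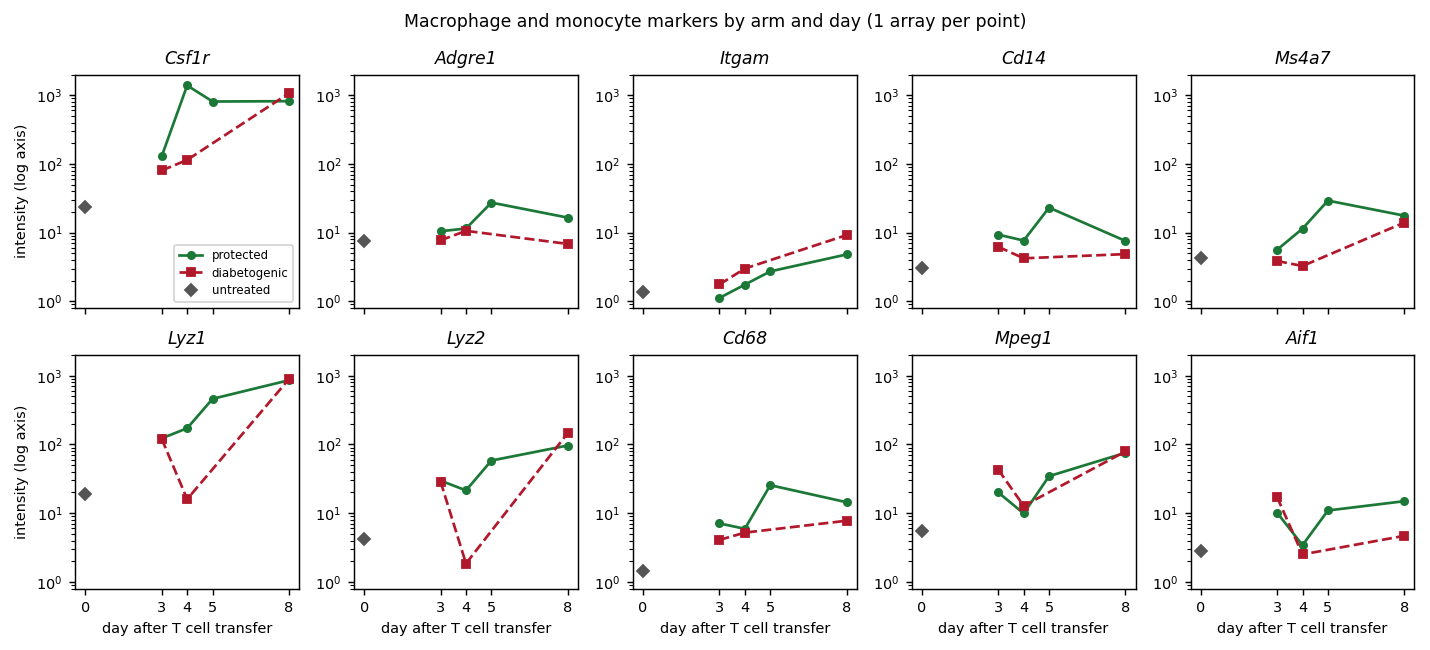
Intensity (log axis) of the used probe set of each of the 10 markers against the day after T cell transfer, 1 array per point, with protected arrays as green circles, diabetogenic arrays as red squares and the untreated array as a grey diamond at day 0. Csf1r, Cd14, Cd68 and Mpeg1 lie above the untreated array on all 7 later arrays, and Lyz1 and Lyz2 drop on the diabetogenic day 4 array.

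After T cell transfer, most markers stood above the untreated array in both arms. On the scale of log2(intensity + 2.155), used for every difference below, at least 2-fold higher values than in untreated islets were found for 7, 5, 9 and 7 of the 10 markers on protected days 3, 4, 5 and 8. The same held for 2.2%, 10.1%, 9.77% and 9.76% of all 16397 genes tested on those days. On diabetogenic days 3, 4 and 8, 5, 2 and 7 of 10 markers were at least 2-fold higher than in untreated islets, against 2.81%, 9.81% and 14.3% of all genes tested. On this scale no marker was at least 2-fold lower than in untreated islets on any array. Lyz2 on diabetogenic day 4 was at -0.66 on this scale, with an intensity of 1.85 against 4.18 in untreated islets. The median marker was higher than on the untreated array by 1.34, 1.0, 2.28 and 2.0 on protected days 3, 4, 5 and 8 and by 1.23, 0.35 and 1.58 on diabetogenic days 3, 4 and 8, whereas the median of all genes tested lay between -0.21 and -0.02 on those 7 arrays. With the used probe sets, Csf1r, Cd14, Cd68 and Mpeg1 were above the untreated array on all 7 later arrays (4 of 10, against 8.87% of all genes tested). These differences share the single untreated array.

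The model over all 8 arrays did not call any marker. The mean log2 difference from the untreated array was positive for 10 of 10 markers in the protected arm, with a median of 1.62 against -0.04 for all genes, and for 10 of 10 in the diabetogenic arm, with a median of 0.95 against -0.10. With limma, 0 of 10 markers and 0% of all genes tested passed an adjusted p of 0.05 in protected against untreated islets, and 0 of 10 and 0% passed in diabetogenic against untreated islets. At an unadjusted p under 0.05 there were 3 markers and 371 genes in the protected arm, and 0 markers and 450 genes in the diabetogenic arm. The lone untreated array was assumed to vary like arrays of different days within an arm, and both comparisons share it. The day 3 arrays lie in the same set of spiked-control values as the untreated array, and on each of them 9 of 10 markers were above untreated islets, against 45.1% of all genes tested on each.

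The cell surface receptors come first. Csf1r had an intensity of 129, 1386, 809 and 819 on protected days 3, 4, 5 and 8, against 80.3, 114 and 1067 on diabetogenic days 3, 4 and 8 and 23.9 in untreated islets. With its used probe set it was higher than in untreated islets on every later array, and the arms stood far apart on day 4 only, so that their ranges overlap. The mean log2 difference from untreated was 4.50 ± 1.52 (SE, a 22.7-fold difference) over 4 protected arrays and 3.06 ± 1.57 (8.34-fold) over 3 diabetogenic arrays, with adjusted p of 0.9998 and 0.894.

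Cd14, the co-receptor that passes bacterial lipopolysaccharide to Toll-like receptor 4, had 9.36, 7.67, 23.1 and 7.58 on protected days 3, 4, 5 and 8, against 6.23, 4.23 and 4.87 on diabetogenic days 3, 4 and 8 and 3.01 in untreated islets. Every protected array was above every diabetogenic array, and every diabetogenic array was above the untreated one. Adgre1 had 10.5, 11.49, 27.4 and 16.5 in protected islets, against 7.73, 10.6 and 6.85 in diabetogenic islets and 7.58 in untreated islets. Its diabetogenic values surrounded the resident level, with a mean difference from untreated of 0.10 ± 0.79 (-0.05 without day 4), while all 4 protected values lay above it.

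Ms4a7, a membrane protein of mature macrophages, had 5.63, 11.4, 29.2 and 17.7 on protected days 3, 4, 5 and 8, against 3.87, 3.27 and 14.0 on diabetogenic days 3, 4 and 8 and 4.34 in untreated islets. Diabetogenic day 8 was the only diabetogenic array above the untreated one for this gene, and the mean difference from untreated was 0.32 ± 0.87, or 0.60 without day 4 and -0.18 without day 8. Itgam, the α chain of the adhesion receptor Mac-1 (CD11b), which monocytes, neutrophils and some dendritic cells also carry, had 1.12, 1.75, 2.73 and 4.81 in protected islets, against 1.76, 3.00 and 9.21 in diabetogenic islets and 1.38 in untreated islets. Its probe set lay below the array median on 6 of 8 arrays and passed the filter on dim values through the day 8 arrays alone. Its highest value was on the diabetogenic day 8 array.

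The lysozymes, secreted enzymes that cut bacterial cell walls, followed each other over the days. Lyz1, in the mouse known mainly from Paneth cells of the gut, had 123, 172, 461 and 860 on protected days 3, 4, 5 and 8, against 120, 16.0 and 891 on diabetogenic days 3, 4 and 8 and 19.1 in untreated islets. Lyz2, the form made by macrophages and granulocytes, had 29.8, 21.4, 58.3 and 96.5 in protected islets, against 28.8, 1.85 and 146 in diabetogenic islets and 4.18 in untreated islets. Both genes were near equal between the arms on day 3, highest on day 8 in both arms, and below the untreated value on the diabetogenic day 4 array. On that array Csf1r, Adgre1, Cd14, Cd68, Itgam and Mpeg1 were above their untreated values, so a reading below the untreated one was not shared by all markers. By rank among all probe sets of an array, Lyz1 was at the 97.4th percentile on diabetogenic day 4 and the 93.1st on the untreated array, while Lyz2 was at the 18.4th percentile on diabetogenic day 4 and the 60.1st on the untreated array.

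The mean log2 difference from untreated was 3.85 ± 1.69 for Lyz1 and 2.86 ± 1.45 for Lyz2 over 4 protected arrays, with an adjusted p of 0.9998 for each. Over 3 diabetogenic arrays it was 2.56 ± 1.74 for Lyz1 and 2.06 ± 1.50 for Lyz2, with an adjusted p of 0.894 for each. Single arrays decided much of these diabetogenic values: without day 4 they were 3.96 for Lyz1 and 3.42 for Lyz2, and without day 8 they were 1.15 for Lyz1 and 0.81 for Lyz2. Without day 8 the Csf1r difference was 1.91. Leaving out single arrays did not bring any marker past the threshold against untreated islets.

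Among the intracellular markers, Cd68, a glycoprotein of late endosomes and lysosomes, had 7.10, 5.92, 25.5 and 14.4 on protected days 3, 4, 5 and 8, against 4.08, 5.21 and 7.76 on diabetogenic days 3, 4 and 8 and 1.43 in untreated islets. All later arrays were above the untreated one, and protected was above diabetogenic on each matched day. Mpeg1, which encodes the pore-forming protein perforin-2, had 20.0, 9.91, 34.6 and 75.6 in protected islets, against 43.0, 12.8 and 79.2 in diabetogenic islets and 5.49 in untreated islets. It was lower in the protected than in the diabetogenic arm on each matched day, and the day 4 arrays were the lowest of both arms.

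Aif1, the actin-binding protein Iba1 that marks microglia and other macrophages, had 10.2, 3.42, 10.9 and 14.9 on protected days 3, 4, 5 and 8, against 17.2, 2.51 and 4.68 on diabetogenic days 3, 4 and 8 and 2.80 in untreated islets. The arm with the higher value changed between day 3 and the later days, and the ranges overlap. Its mean difference from untreated was 0.78 ± 0.82 in diabetogenic islets, or 1.21 without day 4 and 0.19 without day 3. Over both arms Cd68 and Mpeg1 were above untreated islets by 1.92 ± 0.72 and 1.95 ± 1.17 in protected islets and by 1.10 ± 0.75 and 2.31 ± 1.21 in diabetogenic islets.

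The second question is whether blocking interferon-γ went with more or fewer macrophages. Over days 3, 4 and 8, the mean log2 difference, protected minus diabetogenic, was positive for 8 of 10 markers and negative for Itgam and Mpeg1. The median was 0.51, against 0.07 for all genes tested, of which 57.0% were positive. None of the 10 passed with limma (day as a block, adjusted p of 0.608 to 0.831), none reached an unadjusted p under 0.05, and 0.11% of all genes tested (18 of 16397) were called, with 1471 at an unadjusted p under 0.05. A p over the threshold does not show that the arms had equal macrophage content. The SEs came mostly from genes of like level, since each gene brought 2 residual degrees of freedom of its own to the 30.4 that the trend over all genes supplied.

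Among the surface receptors, the arm difference was 0.66 ± 0.37 for Ms4a7, 0.52 ± 0.35 for Cd14 and 0.50 ± 0.38 for Adgre1, each positive on all 3 days. It was 1.29 ± 1.28 for Csf1r, where day 4 alone gave 3.58 and day 8 gave -0.38. It was -0.45 ± 0.32 for Itgam, negative on all 3 days. Without the day 4 pair, the difference was 0.15 for Csf1r and 0.33 for Ms4a7.

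For the lysozymes the arm difference was 1.08 ± 0.98 for Lyz1 and 0.67 ± 0.54 for Lyz2, and day 4 supplied it. The day 4 differences were 3.26 for Lyz1 and 2.56 for Lyz2, while days 3 and 8 gave 0.03 and -0.05 for Lyz1 and 0.04 and -0.59 for Lyz2. Without the day 4 pair the differences were -0.01 for Lyz1 and -0.27 for Lyz2. For the intracellular markers the arm difference was 0.48 ± 0.36 for Cd68, -0.47 ± 0.49 for Mpeg1 and 0.31 ± 0.38 for Aif1, and without the day 8 pair Aif1 was at -0.20.

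**Figure D2:**
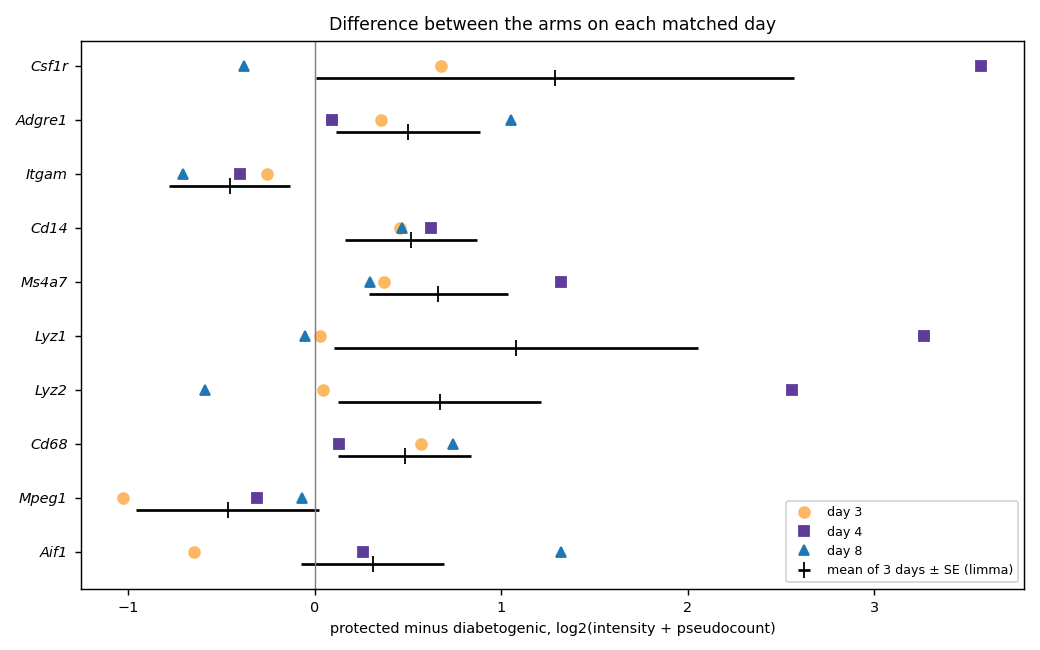
Log2 difference, protected minus diabetogenic, of each marker on day 3 (orange circles), day 4 (purple squares) and day 8 (blue triangles), 1 pair of arrays per point, with the mean of the 3 days ± SE from limma as a black bar below the points. Csf1r, Lyz1 and Lyz2 have day 4 points from 2.56 to 3.58 and day 8 points below 0, while Adgre1, Cd14, Cd68 and Ms4a7 are above 0 on all 3 days.

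Day by day, 7 markers were higher and 3 lower in protected islets on day 3, 8 higher and 2 lower on day 4, and 5 higher and 5 lower on day 8. Over all genes tested, the SD of the difference was 0.38, 0.82 and 0.84 on days 3, 4 and 8. On day 3, 0 of 10 markers were at least 2-fold higher in protected islets (0.506% of all genes tested) and 1, Mpeg1 at -1.03, was at least 2-fold lower (1.34%). On day 4, 4 markers were at least 2-fold higher (14.1% of all genes tested), namely Csf1r, Lyz1, Lyz2 and Ms4a7, and 0 were lower (5.78%). On day 8, Adgre1 at 1.05 and Aif1 at 1.32 were at least 2-fold higher (2 of 10, against 13.9%) and 0 were lower (9%). The median marker differed by 0.20, 0.44 and 0.12 on days 3, 4 and 8, against 0.02, 0.13 and 0.10 for all genes. Adgre1, Cd14, Cd68 and Ms4a7 were higher in protected islets on all 3 days (4 of 10, against 20.1% of all genes tested). On day 4, however, Adgre1 at 0.10 and Cd68 at 0.13 were near the median of all genes. These are single pairs of arrays and carry no test.

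The day 4 contrast depends on how arrays are scaled. With all arrays brought to a common 99th percentile, which raises the diabetogenic day 4 array most, the median marker was lower in protected islets on day 4, at -0.55 against -0.90 for all genes, with 3 markers at least 2-fold higher and 3 at least 2-fold lower. Over the matched days this scaling put the median of all genes at -0.34 and that of the markers at 0.05, with 7 of 10 positive, so the markers' median lay above that of all genes while the sign of Aif1 turned. The markers that were higher in protected islets on all 3 days as deposited came near 0 in part. Their mean differences under this scaling were 0.004 for Adgre1, 0.02 for Cd68, 0.09 for Cd14 and 0.24 for Ms4a7.

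The third comparison asks whether the markers changed between days 3 and 8. Fitted over the 7 arrays of both arms with arm as a covariate, the change per day was positive for 9 of 10 markers. It was positive for 49.4% of all genes tested. The median was 0.27 on the log2 scale for the markers against -0.00 for all genes. With limma 0 of 10 markers and 0% of all genes tested passed, with adjusted p of 0.484 to 0.995 for the markers. With the used probe sets, Lyz1, Lyz2, Csf1r and Ms4a7 had an unadjusted p under 0.05, as did 8.99% of all genes tested (1474). Itgam did too, but it passed the filter on dim values through the day 8 arrays alone, at the end of this axis. Its slope is thus a description and does not count toward a change over days, although the 9 of 10 and the median of 0.27 include it.

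The change per day was 0.69 ± 0.23 for Lyz1, 0.54 ± 0.21 for Lyz2 and 0.54 ± 0.22 for Csf1r. It was 0.27 ± 0.13 for Ms4a7 and 0.26 for Itgam. Without the diabetogenic day 8 array it was 0.45 for Lyz1, 0.27 for Lyz2 and 0.33 for Csf1r. With the mean of probe sets it was 0.48 for Lyz1 and 0.35 for Csf1r. Mpeg1 gave 0.37 ± 0.18 and Cd68 0.16 ± 0.12. Adgre1 at 0.03 ± 0.13, Cd14 at -0.03 ± 0.12 and Aif1 at 0.00 ± 0.14 lay within their SE of no change. Without the diabetogenic day 4 array, Lyz1 gave 0.57 per day with an adjusted p of 0.0498 and was the only marker to pass, and over all alternatives its adjusted p ran from 0.0498 to 0.9995. Between the arms, the difference in slope was called for 0 of 10 markers and 0 of all genes by limma, with an adjusted p of 0.99996 for the markers.

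Probe sets of 1 gene did not always give the same reading. Csf1r has 3: the used one, 1419872_at, ran from 23.9 to 1386 over the 8 arrays. The probe set 1419873_s_at had 34.6, 186, 131 and 102 on protected days 3, 4, 5 and 8, against 17.8, 16.1 and 122 on diabetogenic days 3, 4 and 8 and 2.90 in untreated islets, and the same arm was the higher on each matched day as with the used probe set. The dim 1423593_a_at stayed between 2.80 and 17.0, and its 2.80 on diabetogenic day 3 lay below the 4.85 in untreated islets. Its mean difference from untreated was 0.76 in protected and 0.22 in diabetogenic islets. For 1419873_s_at these were 4.29 and 2.81, and for the used probe set 4.50 and 3.06, so the size of the rise depended on the probe set. The matched-day difference was 1.34 ± 0.65 for 1419873_s_at and 0.32 ± 0.36 for 1423593_a_at. The change per day was 0.36 ± 0.21 for 1419873_s_at and 0.13 ± 0.12 for 1423593_a_at, against 0.54 ± 0.22 for the used probe set.

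For Lyz1, the used probe set 1436996_x_at and the similar 1439426_x_at both spanned the range described, the second with 77.6, 124, 333 and 597 on protected days 3, 4, 5 and 8, against 73.6, 18.1 and 604 on diabetogenic days 3, 4 and 8 and 11.3 in untreated islets. Unlike the used probe set, it was above its untreated value on the diabetogenic day 4 array. The third Lyz1 probe set, 1450822_at, lacks the x mark and stayed between 2.61 and 6.42 on all arrays, with 4.37 in untreated islets. Its matched-day difference was -0.10 ± 0.34 and its change per day 0.06 ± 0.09, so the course reported for Lyz1 was not seen with this probe set. For 1439426_x_at the change per day was 0.68 ± 0.22. For Ms4a7 the probe set 1445365_at stayed between 1 and 4.81, below the array median on 7 of 8 arrays, and was the 1 of 15 that did not pass the filter on dim values.

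**Figure D3:**
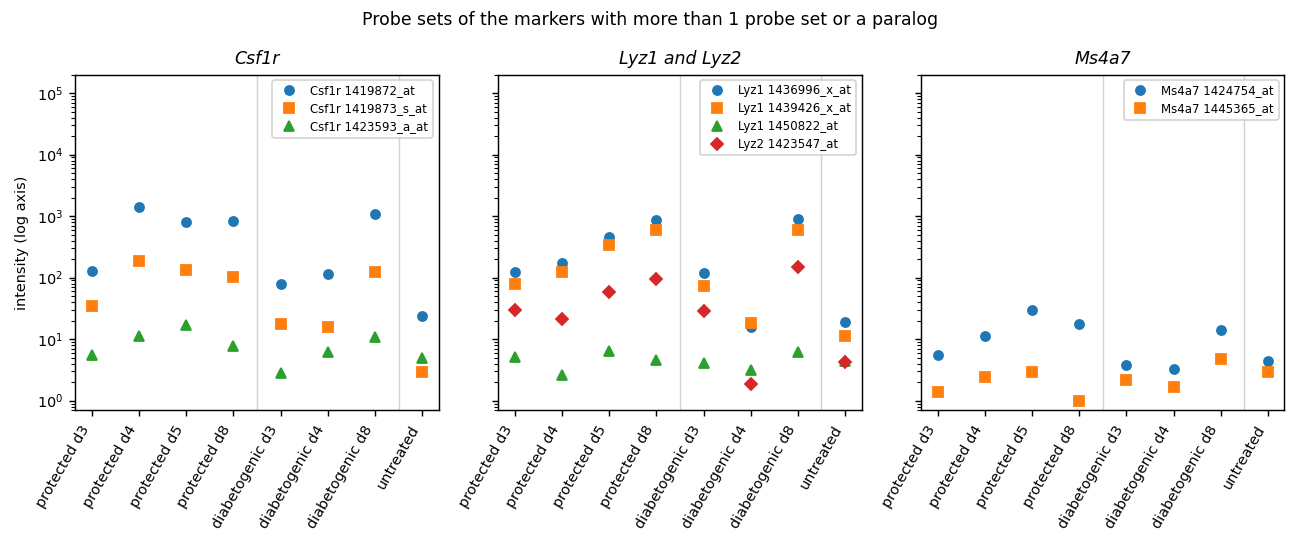
Intensity (log axis) of all probe sets of Csf1r, of Lyz1 with Lyz2, and of Ms4a7 on the 4 protected, 3 diabetogenic and 1 untreated arrays, 1 array per point, with colour and shape for the probe set and grey lines between the groups. The 2 Lyz1 probe sets marked x follow Lyz2 across the arrays, whereas 1450822_at lies between 2.61 and 6.42 throughout.

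The markers resembled each other across arrays. Over the 8 arrays, Pearson's r between pairs of markers was above 0 for 42 of 45 pairs, with a median of 0.593, and over 0.8 for 10 pairs. All pairs share the same 8 arrays, the step between the untreated and the later arrays, and the spread in array signal, so these r are a description. Lyz1 and Lyz2 were the most alike with 0.982, followed by Lyz2 with Mpeg1 (0.862), Cd68 with Ms4a7 (0.859) and Adgre1 with Cd14 (0.857), and the least alike pair was Cd14 and Itgam (-0.09). Against the mean profile of all 10, r was highest for Lyz1 (0.935), Cd68 (0.921) and Ms4a7 (0.900) and lowest for Itgam (0.546) and Aif1 (0.594).

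That mean profile, in units of each gene's SD over the 8 arrays, was -0.15, -0.11, 1.04 and 0.88 on protected days 3, 4, 5 and 8, against -0.22, -0.77 and 0.52 on diabetogenic days 3, 4 and 8 and -1.19 in untreated islets. Protected day 5 was the highest array, and it has no diabetogenic counterpart. It was also the array with the highest 3' to 5' ratio of Actb, and the part of this in the profile was not tested. Among the genes outside the 10, those with the profile most like it over 8 arrays were Cebpb (r 0.987), Cmtm7 (0.986), Cd300lf (0.985), Fermt3 (0.984), Trpv2 (0.981) and Wdfy4 (0.981). Fermt3 had 19.1, 33.4, 122 and 81.3 in protected islets, against 15.1, 9.60 and 68.2 in diabetogenic islets and 4.15 in untreated islets. Cebpb had 12.01, 15.2, 33.3 and 29.4 in protected islets, against 12.8, 8.05 and 18.9 in diabetogenic islets and 6.54 in untreated islets.

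Other genes of the same cells were read for comparison. Of 36 tested genes of a list of 40 for mononuclear phagocytes (Fc receptors, complement C1q, chemokine receptors, scavenger receptors and transcription factors), 28 were higher and 8 lower in protected than in diabetogenic islets, with a median of 0.30, and 1 was called. Cd163, the scavenger receptor for haemoglobin bound to haptoglobin, had 10.1, 35.0, 39.7 and 6.69 on protected days 3, 4, 5 and 8, against 2.29, 3.47 and 1 on diabetogenic days 3, 4 and 8 and 1.37 in untreated islets. It was higher in protected islets by 1.89 ± 0.36 (adjusted p of 0.0167, higher on 3 of 3 days), and its adjusted p ran from 0.00204 to 0.9996 over 13 alternatives, of which 8 lost the call. Ms4a6d (1.62 ± 0.52, adjusted p of 0.382) and Clec4a3 (1.13 ± 0.38, adjusted p of 0.389) had the next largest differences. Without the day 4 pair Ms4a6d was at 0.59, Clec4a3 at 1.56 and Cd163 at 1.47 (adjusted p of 0.201), and with the mean of its probe sets Ms4a6d was at 0.41. Against untreated islets, 34 of the 36 were higher in protected islets (median 0.81) and 31 of the 36 in diabetogenic islets (median 0.57), with 0 called by limma in both.

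Ligands and partners of the markers had a smaller median difference. Of 16 tested genes of a list of 18, 11 were higher and 5 lower in protected islets, with a median of 0.09 and 0 called by limma. Ly96, the MD-2 protein that completes the lipopolysaccharide receptor with Cd14 and Tlr4, had the largest difference at -1.30 ± 0.35 (adjusted p of 0.256), with 1.93, 1.33, 2.27 and 1.60 on protected days 3, 4, 5 and 8, against 3.02, 13.0 and 7.94 on diabetogenic days 3, 4 and 8 and 1.63 in untreated islets. Csf2rb, the common β chain of the GM-CSF, IL-3 and IL-5 receptors, followed at 0.99 ± 0.56, and Il34, a ligand of Csf1r, at -0.61 ± 0.36. Without the day 4 pair the difference was -0.88 for Ly96 and 0.62 for Csf2rb. With the mean of its probe sets Csf2rb was at 0.25. Csf1, the other ligand of Csf1r, was named here after its values were seen and had 7.89, 4.72, 8.10 and 16.5 in protected islets, against 8.15, 10.97 and 10.6 in diabetogenic islets and 10.6 in untreated islets. Its values thus lay around the untreated value, while the used probe set of Csf1r was higher than untreated on every later array.

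Markers of other cells could share the signal, since Itgam, Lyz2, Mpeg1 and Cd14 are not specific to macrophages. Of 12 genes of leukocytes in general, 9 were higher in protected islets (median 0.52, 0 called by limma), led by Laptm5 (1.24 ± 1.23), Arhgdib (0.96 ± 0.49) and Coro1a (0.89 ± 0.47). These rested largely on day 4: without that pair they were 0.32 for Laptm5, 0.59 for Arhgdib and 0.23 for Coro1a, and with the mean of probe sets Laptm5 was at 0.33 and Coro1a at 0.02. The summed intensity of the 12 was 322 to 1533 in protected islets, 152 to 1245 in diabetogenic islets and 65.9 in untreated islets. Laptm5 made up much of it, and without Laptm5 the sum was 177 to 423 in protected islets, 66.4 to 362 in diabetogenic islets and 50.5 in untreated islets. Their median difference from untreated was 1.03 to 2.43 in protected islets and 0.67 to 1.32 in diabetogenic islets. Of 9 tested T cell genes (of 14 listed), all 9 had an arm mean above untreated islets in both arms, with 0 called by limma. By array, 5, 7, 9 and 9 were above untreated on protected days 3, 4, 5 and 8, and 7, 7 and 8 on diabetogenic days 3, 4 and 8, with a summed intensity of 48.1 to 133 in protected islets, 46.1 to 113 in diabetogenic islets and 34.2 in untreated islets. The arms differed in median by 0.09, with Cd3e at 1.30 ± 0.39, Cd247 at -0.51 ± 0.34 and Thy1 at 0.48 ± 0.42 (0 called), or 0.85 for Cd3e and 0.25 for Thy1 without the day 4 pair. With the mean of its probe sets Cd247 was at -0.22.

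Of 10 tested dendritic cell genes (of 11), 8 were higher in protected islets, with a median of 0.23 and 0 called, and Itgax, the CD11c chain, had 19.2, 9.53, 41.7 and 30.2 on protected days 3, 4, 5 and 8, against 10.04, 1.16 and 4.32 on diabetogenic days 3, 4 and 8 and 3.20 in untreated islets (1.65 ± 0.39, adjusted p of 0.106). Fscn1 (1.28 ± 0.46) and Cd209a (0.81 ± 0.38) followed. Without the day 8 pair they were at 0.36 and 0.27, and with the mean of its probe sets Fscn1 was at 0.31. The summed dendritic cell intensity was 52.8 to 186 in protected islets, 33.6 to 53.3 in diabetogenic islets and 31.2 in untreated islets. Of 9 tested neutrophil genes (of 13), 5 were higher and 4 lower in protected islets, with a median of 0.07 and 0 called, and Ltf (-0.53 ± 0.35), Mpo (0.52 ± 0.36) and Mmp9 (0.45 ± 0.36) had the largest differences, which were -0.17, 0.05 and 0.29 for Ltf, Mpo and Mmp9 without the day 4 pair. Their summed intensity was 41.8 to 96.2 in protected islets, 41.5 to 63.6 in diabetogenic islets and 43.4 in untreated islets. With the mean of its probe sets the arm difference of Mmp9 was 0.11. On the untreated array, 6 of the 9 T cell genes, 6 of the 10 dendritic cell genes and 1 of the 9 neutrophil genes lay below the array median. The part of T cells, dendritic cells and neutrophils in the macrophage markers was not tested.

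**Figure D4:**
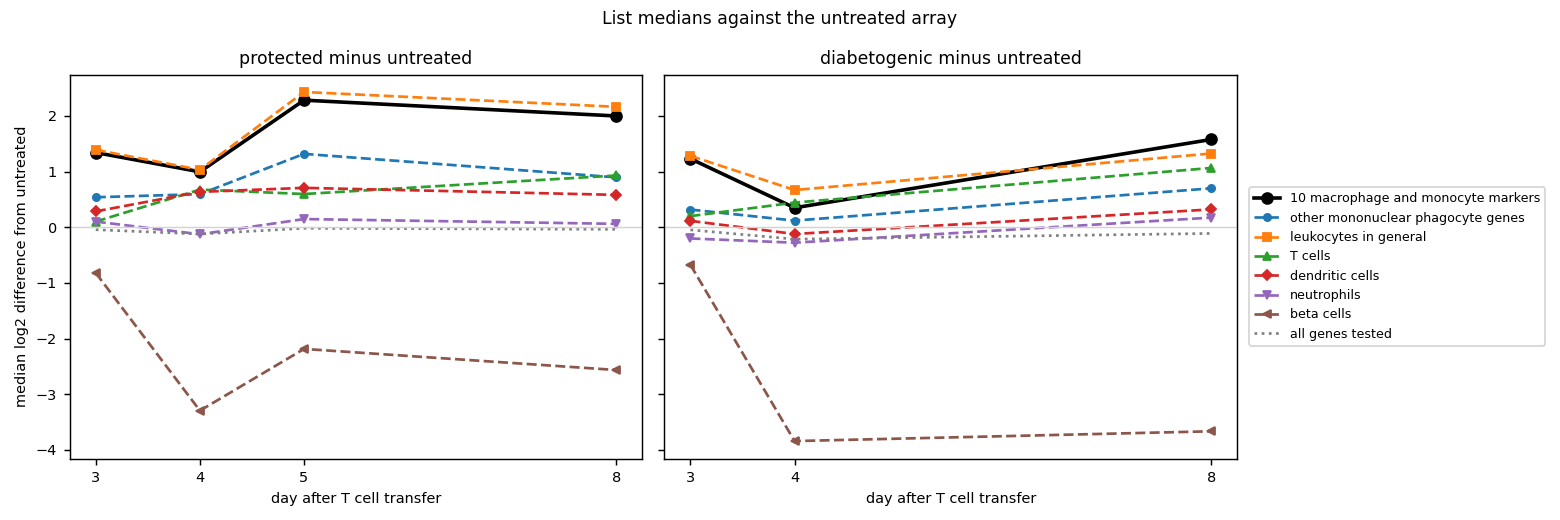
Median log2 difference from the untreated array, protected on the left and diabetogenic on the right, against the day after T cell transfer, for the 10 markers (black line), 6 other gene lists (dashed) and all genes tested (dotted). The 10 markers lie between 1.0 and 2.28 in protected islets and between 0.35 and 1.58 in diabetogenic islets, close to the line of leukocyte genes, while the median of the beta cell genes lies below 0 in both arms.

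The islet tissue around the cells also differed between arrays. The 8 tested beta cell genes had a median difference from untreated of -0.82, -3.29, -2.19 and -2.56 on protected days 3, 4, 5 and 8 and of -0.68, -3.84 and -3.67 on diabetogenic days 3, 4 and 8. The median does not hold for every gene. In protected islets 6 of the 8 had a mean below untreated, while Ins2 (0.24) and Iapp (0.90) were above it. In diabetogenic islets all 8 were below. Their summed intensity, most of it from Ins2, was 4670 to 7311 in protected islets, 3813 to 5567 in diabetogenic islets and 5369 in untreated islets. The arm difference was positive for 8 of 8 (median 0.47, 0 called). The 9 tested genes of acinar cells, the exocrine tissue that borders the islets, were all higher in protected islets (median 2.18, 0 called), with a summed intensity of 982 to 6034 in protected islets, 239 to 1978 in diabetogenic islets and 2768 in untreated islets. The part of beta cell and acinar tissue in the marker values was not tested.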

How the data were processed

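Islets were laser-captured from fixed frozen sections and the RNA of 5 mice per array was pooled, amplified and biotin-labelled, per the labels' protocols. The deposited table holds 1 intensity per probe set and array on a linear scale. The authors' steps of summarising and scaling are not given in the sources. The platform annotation gave 1 symbol to 34958 probe sets, several to 932 and none to 9211, and those with 1 symbol were used.

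Intensities were put on the scale log2(intensity + 2.155), where the pseudocount is the median of the 8 arrays' 25th percentiles, which understates the change of dim genes. A probe set was kept if it reached the array median on 2 or more of the 8 arrays, and the brightest kept probe set stood for its gene, giving 16397 genes. All 10 markers were tested, with 14 of their 15 probe sets kept. Tests used limma 3.58.1 in R 4.3.3 (lmFit, eBayes with a variance trend) with Benjamini-Hochberg adjustment over all genes and 0.05 as threshold. Arms were compared with day as a block (6 arrays), each arm with untreated islets over 8 arrays, and the change per day over 7 arrays with arm as a covariate. Nothing in the labels says that days are replicates of an arm. Against untreated islets, the p-values set a difference against the spread between pools of different days within an arm. Between the arms, they set it against how far the arm difference varied from day to day. For the change per day, they set it against the scatter around a line in day. In each fit these spreads were drawn toward a trend over all genes. Each fit was tested on simulated data. Log2 differences of 2 were recovered for 69% of changed genes between the arms. Against untreated islets it was 39% in the protected and 37% in the diabetogenic arm. A change of 0.5 per day was recovered for 42%, so many changes of this size would be missed. The simulated noise was independent between genes and arrays and had no differences in signal between arrays, unlike these data. The number of arrays limits the precision.

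The markers and the gene lists were chosen with earlier results of these data known. Named are all members with all probe sets, the 3 genes with the largest arm difference in each of the 6 lists of phagocytes, partners, leukocytes, T cells, dendritic cells and neutrophils, and the 6 genes most like the members' mean profile. Beta cell and acinar lists are given as medians and sums, and the B cell list as its range on the untreated array. Scaling, pseudocount, filter, probe set choice, variance trend and left-out arrays were varied.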

Additional observations from a re-analysis of the deposited data

How the results depend on the processing

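Of 640 values of single markers under the alternatives, 620 kept their direction and their side of the threshold and 19 reversed. No marker passed in any main comparison, so keeping the side of the threshold says little. The single untreated array was in every fit against untreated islets, so how far those directions depend on it was not tested. Between the arms, 0 markers were called under all 13 alternatives. The number of genes called between the arms, 18 as reported, was 8 with 4 times the pseudocount, 10 with no filter, 1 with quantile normalization, 44 with a common 99th percentile, 1 with the mean of probe sets, 11 with no variance trend and 0 with no day block, and ran from 32 to 69 when a day's pair was left out. In protected against untreated islets the count of 0 became 1 with quantile normalization, with a common 99th percentile and with every probe set as a row, and ran from 0 to 2 when an array was left out. For the change per day the count of 0 became 3 with a common 99th percentile and 2 with no variance trend, and ran from 0 to 8, with 0 to 1 markers called, when an array was left out. In both of these comparisons the highest count came without the diabetogenic day 4 array. The difference between the spiked-control sets as a term of the fit, chosen after seeing the data, gave 7 genes called for the change per day.

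Reversed arm differences were Aif1 at -0.064 with a common 99th percentile and, over the left-out pairs, Aif1 from -0.20 to 0.79, Lyz1 from -0.011 to 1.65 and Lyz2 from -0.27 to 1.30. Against untreated islets, the spiked-control term turned Itgam to -0.23 in the protected arm and Adgre1 to -0.16 and Ms4a7 to -0.37 in the diabetogenic arm, where left-out arrays gave Adgre1 from -0.045 to 0.21 and Ms4a7 from -0.18 to 0.60. The change per day of Aif1 was -0.00116 with 4 times the pseudocount, -0.019 with median centring and -0.015 with a common 99th percentile. That of Adgre1 was -0.0052 with a common 99th percentile and -0.045 with the spiked-control term. Over left-out arrays the change per day ran from -0.15 to 0.17 for Aif1, from -0.020 to 0.12 for Adgre1 and from -0.058 to 0.048 for Cd14. On single days, the 1 marker at least 2-fold lower in protected islets on day 3 became 0 with 4 times the pseudocount, quantile normalization, median centring and a common 99th percentile. On day 4, 0 lower became 3 with a common 99th percentile, and on day 8, 2 higher became 0 with 4 times the pseudocount and 1 with a common 99th percentile. The cause of these shifts was not tested. The day block is the only pairing that the labels give. Dim probe sets such as those of Itgam, Cd68, Aif1, Cd14, Lyz2 and Ms4a7 in untreated islets limit what a fold can show.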
